A study of Mus musculus with 6 samples.

Results

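The genes of MHC class I and class II antigen presentation were followed in the mouse left ventricle. They were taken as every protein-coding row of the count table whose symbol starts with H2-, apart from H2-Ke2 and H2-Ke6, together with B2m, Cd74, Ciita, Nlrc5, Tap1, Tap2, Tapbp, Tapbpl, Erap1, Calr and Ctss. This gave 44 genes of 22046 protein-coding genes and 54929 rows in all. They fell into 2 classical class I genes, 22 nonclassical class I genes, 7 genes of the class I light chain and of peptide loading, 11 class II genes (here with Cd74 and Ctss) and 2 regulators. Of the 44 genes, 36 lie on chromosome 17, between bases 33915899 and 37483552 of the mm10 build, and 8 lie on other chromosomes.

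RNA of the left ventricle was sequenced from wild-type (WT) C57BL/6 mice after TAC, the constriction of the transverse aorta that puts the left ventricle under pressure overload. One group had received an anti-PD-1 antibody (10 mg/kg, 3 libraries) and the other an anti-IgG antibody (10 mg/kg, 3 libraries). Both were injected into the peritoneum every 3 days from day 14 after surgery, and all libraries carry the time label 5 weeks, whose starting point is not given. All animals had undergone TAC, so the comparison is between antibodies within pressure overload, and no unoperated heart was analysed here.

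Class I molecules are carried by nearly all nucleated cells and show peptides from inside the cell to CD8+ T cells; a heavy chain pairs with the light chain B2m and is loaded in the endoplasmic reticulum with peptides that the TAP transporter brings in. Class II molecules are carried mainly by dendritic cells, macrophages and B cells and show peptides from the endosome to CD4+ T cells. In the heart most cells are cardiomyocytes, endothelium and fibroblasts, and macrophages are the main resident leukocytes. NLRC5 drives class I genes and CIITA drives class II genes, both through promoter elements called the X and Y boxes, and interferon gamma raises both sets. PD-1 is an inhibitory receptor of activated T cells.

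Promoters of many of these genes, though not of all, carry a core of those elements in their letters. Those of 6 genes are printed from RefSeq (GRCm38.p6), each with 160 bases before and 10 after the start of transcription. Capitals mark a Y box core (TGATTGG) or an X box core (CTNGNAAC), on either strand. Capitals also mark, on either strand, a class I interferon response sequence (AAGTGAAAC) or an interferon-stimulated response element (GAAA repeated after any 2 bases). Among the printed genes H2-K1 and H2-Ob did not pass the test below, while H2-Q4 and H2-Q7 passed and are not printed. The 6 promoters serve as examples from both classes, and each holds a marked element. In the printed order they lie at chr17:35262934-35263103 (plus strand), chr17:34000324-34000493 (minus strand), chr17:36032692-36032861 (minus strand), chr17:34287814-34287983 (minus strand), chr17:34305707-34305876 (plus strand) and chr17:34238745-34238914 (plus strand).
H2-D1 promoter: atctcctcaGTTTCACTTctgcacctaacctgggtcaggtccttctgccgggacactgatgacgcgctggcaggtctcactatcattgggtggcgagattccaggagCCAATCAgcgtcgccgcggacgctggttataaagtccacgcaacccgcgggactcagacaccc
H2-K1 promoter: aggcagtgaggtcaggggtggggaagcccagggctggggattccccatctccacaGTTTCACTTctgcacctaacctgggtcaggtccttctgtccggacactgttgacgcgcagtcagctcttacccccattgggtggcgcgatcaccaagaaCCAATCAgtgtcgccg
H2-T23 promoter: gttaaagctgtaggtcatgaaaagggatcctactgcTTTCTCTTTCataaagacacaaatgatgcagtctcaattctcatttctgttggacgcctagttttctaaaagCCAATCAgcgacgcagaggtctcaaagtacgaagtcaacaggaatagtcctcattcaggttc
H2-Aa promoter: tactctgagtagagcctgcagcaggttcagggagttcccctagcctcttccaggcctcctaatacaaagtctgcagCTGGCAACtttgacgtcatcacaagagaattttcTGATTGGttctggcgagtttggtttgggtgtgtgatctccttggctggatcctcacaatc
H2-Eb1 promoter: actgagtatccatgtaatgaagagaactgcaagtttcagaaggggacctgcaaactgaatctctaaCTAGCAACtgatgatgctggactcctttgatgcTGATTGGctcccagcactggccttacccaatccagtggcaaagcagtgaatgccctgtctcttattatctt
H2-Ob promoter: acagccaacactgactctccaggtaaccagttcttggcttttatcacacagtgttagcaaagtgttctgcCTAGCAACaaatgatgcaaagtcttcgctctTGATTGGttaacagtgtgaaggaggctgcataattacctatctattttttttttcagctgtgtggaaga
In the printed class II promoters the X box core precedes the Y box core on the printed strand. In the printed class I promoters the Y box core is read on the opposite strand, and no X box core is marked. H2-D1 is nevertheless counted below with an X box core, which lies in a stored window but not in the printed bases. A promoter was found in RefSeq for 36 of the 44 genes. A gene was counted if any of its stored windows, from 250 bases before to 50 after the start, held the letters. The Y box core was in 23 of the 36 (63.9%), against 9.0% of all 27025 genes with a promoter. The X box core was in 12 of 36 (33.3%), against 14.9% of all genes with a promoter. The class I interferon response sequence was in 9 of 36 (25.0%), against 0.474% of all genes with a promoter. The interferon-stimulated response element, which can overlap it, was in 5 of 36 (13.9%), against 3.99%. These 5 were B2m, Ctss, Erap1, H2-T22 and H2-T23. Several of the H2 genes are copies of one another, so their promoters are not independent of each other. A match is a description of letters and not a measured binding site.

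Of the 44 genes, 28 had enough reads to be tested, and most of them lay lower under anti-PD-1: the log2 fold change (anti-PD-1 over anti-IgG) was below 0 for 24 of 28 (85.7%), against 51.9% of all 14807 genes tested, and its median was -0.56, against -0.03. At an adjusted p of 0.05 (edgeR's quasi-likelihood test, Benjamini-Hochberg over all 14807 genes), 7 genes fell, H2-D1, H2-Q4, H2-T23, H2-Q7, H2-Aa, H2-Eb1 and H2-Ab1, 1 gene rose, Erap1, and 20 passed in neither direction. The 7 lower genes were 25.0% of those tested, against 10.8% of all genes, and the 1 higher gene was 3.57%, against 10.3%. At an unadjusted p of 0.05, 14 of the 28 passed. Counts scaled to library size (CPM, adjusted by the TMM method so that libraries can be compared) did not overlap between the groups for 15 of the 28 (53.6%), against 41.0% of all genes; 14 of these were lower under anti-PD-1 (20.8% of all genes were) and 1 was higher (20.2%). Summed over all members, reads came to 1700, 1580 and 1470 CPM in anti-PD-1 libraries 1 to 3, against 1920, 2630 and 2370 CPM in anti-IgG libraries 1 to 3. The labels do not say whether the libraries came from separate animals, so the tests measure only the spread between these samples. In RNA of a whole tissue, fewer cells of a type and less RNA per cell cannot be told apart.

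**Figure D1:**
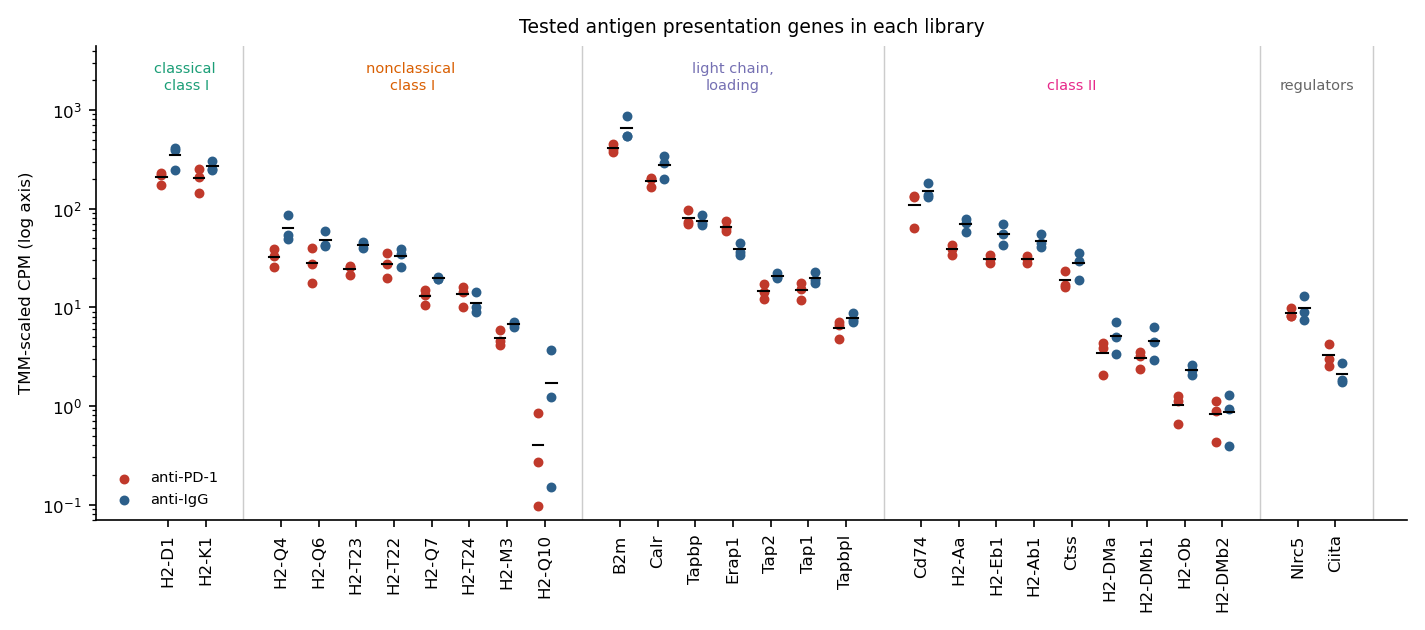
TMM-scaled CPM on a log axis for each tested antigen presentation gene, grouped by role, with 1 point per library, a line at the mean of 3, and anti-PD-1 to the left of anti-IgG within each gene. Erap1 lies higher in all 3 anti-PD-1 libraries, while H2-D1, H2-Q4, H2-T23, H2-Aa, H2-Eb1 and H2-Ab1 lie lower in all 3.

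These counts moved with gene length, so each call of a member is also given with the length trend removed. Across all tested genes the fold change correlated with the gene length that the authors deposited (Spearman rho 0.49 over 14807 genes, which are not independent replicates); the same value was 0.29 over the 28 members. Among genes of up to 2000 bp, 28.8% were called lower under anti-PD-1 and 2.18% higher, and 3 of the 10 members of that length were lower. Among genes between 2000 and 6000 bp, 9.19% were called lower and 6.07% higher, and 4 of 15 members were lower. Among genes of at least 6000 bp, 2.5% were called lower and 22.9% higher, and 1 of 3 members, Erap1, was higher. The members were short, with a median length of 2587 bp, against 4163 bp for all tested genes. When the smooth dependence on gene length was removed from each library, the median of the members was -0.13, 18 of 28 lay below 0 and 1 was called, H2-T23, which was lower; of all genes 10.3% were then called, 5.13% lower and 5.17% higher. When the dependence on coding plus 3' UTR length was removed instead, the median was -0.15, 20 of 28 lay below 0 and none was called, against 6.32% of all genes (2.86% lower and 3.46% higher). Of the 8 calls in edgeR, 7 were thus lost under the one correction and all 8 under the other. The cause of the length trend was not tested.

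**Figure D2:**
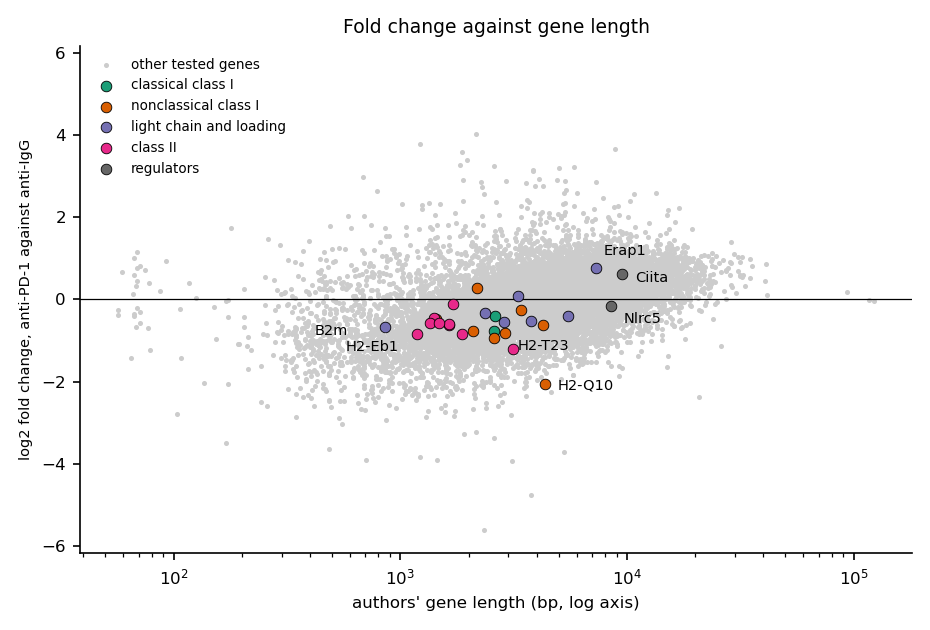
Log2 fold change (anti-PD-1 over anti-IgG) against the authors' gene length in bp on a log axis, with all tested genes in grey and the 28 tested antigen presentation genes coloured by role. The cloud slopes upwards (rho 0.49), and the short class II genes and B2m sit at its left while Erap1, Nlrc5 and Ciita sit at its right.

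The classical class I heavy chains H2-D1 and H2-K1, which present peptides to CD8+ T cells, made up most of the class I reads. H2-D1 (chr17:35262730-35267499) had 231, 218 and 172 CPM in anti-PD-1 libraries 1 to 3, against 248, 395 and 408 CPM in anti-IgG libraries 1 to 3. The groups did not overlap, but anti-IgG library 1 lay close to the anti-PD-1 libraries and well under the other anti-IgG libraries. H2-D1 fell, with a log2 fold change of -0.76 (SE 0.23, edgeR's adjusted p = 0.0415). H2-K1 (chr17:33996017-34000333) had 254, 209 and 145 CPM in anti-PD-1 libraries, against 244, 307 and 251 CPM in anti-IgG libraries. Here anti-PD-1 library 1 was above anti-IgG libraries 1 and 3, so the groups overlapped, and the log2 fold change of -0.40 (SE 0.23, edgeR's adjusted p = 0.229) did not pass. The ratio of H2-D1 to H2-K1, taken in FPKM (fragments per kilobase of gene length, scaled for library size, so that genes of different length can be compared), was 0.918, 1.05 and 1.2 in anti-PD-1 libraries, against 1.03, 1.3 and 1.65 in anti-IgG libraries, with overlap between the groups. The call of H2-D1 rested on the libraries together: it was lost without any one of 5 of the 6 libraries (adjusted p between 0.073 and 0.143) and on FPKM, and held without anti-IgG library 1 (0.0117). With the gene length trend removed it was -0.46 (adjusted p = 0.188), and with the transcript length trend removed -0.49 (0.18).

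Both heavy chains are similar in sequence, which bears on how reads can be assigned. Their coding sequences were 88.3% identical (GENCODE M21 transcripts), and the 120 coding bases in which they differ most are printed with the 20 differing bases in capitals, counted from 1 at the start codon.
H2-D1 coding bases 277 to 396: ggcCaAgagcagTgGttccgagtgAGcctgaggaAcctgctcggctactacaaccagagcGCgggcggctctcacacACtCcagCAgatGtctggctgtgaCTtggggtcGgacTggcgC
H2-K1 coding bases 268 to 387: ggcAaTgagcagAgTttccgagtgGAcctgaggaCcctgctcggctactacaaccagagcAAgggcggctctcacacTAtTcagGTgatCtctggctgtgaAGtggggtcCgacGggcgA
Of all stretches of 50 bases in the H2-D1 transcript, 14.3% occur exactly in the transcript of another gene, and 4.64% of the stretches of 100 bases do; for H2-K1 the shares were 8.79% and 0%. How reads with more than 1 match were counted, and the read length, are not given in the sources used here, so values of near-identical H2 genes are uncertain to that extent.

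Among the nonclassical class I genes, 3 of 8 tested genes fell (37.5%, against 10.8% of all genes) and 5 passed in neither direction. The groups did not overlap for 5 of 8 (62.5%), all lower under anti-PD-1, against 20.8% of all genes. H2-T23 encodes Qa-1, which shows leader peptides of other class I chains to CD94/NKG2 receptors of natural killer cells. H2-T23 (chr17:36029773-36032855) had 25.3, 26.1 and 21.3 CPM in anti-PD-1 libraries, against 39.4, 45.6 and 43.7 CPM in anti-IgG libraries. Each group was tight and the groups lay far apart. Its log2 fold change of -0.82 (SE 0.17, edgeR's adjusted p = 0.011) was, of the 8 calls, the one lost in the fewest fits that left out a library, only that without anti-IgG library 2 (0.056). It held with the gene length trend removed (-0.61, adjusted p = 0.0391), though not with the transcript length trend removed (-0.36, 0.217).

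H2-Q4 (chr17:35379617-35385290), a class I gene of the Q region, had 32.8, 39.3 and 25.8 CPM in anti-PD-1 libraries, against 49.0, 86.0 and 54.1 CPM in anti-IgG libraries. Anti-IgG library 2 stood above the other anti-IgG libraries, and the groups did not overlap. H2-Q4 fell by 0.95 on the log2 scale (SE 0.24, edgeR's adjusted p = 0.022), a call lost without anti-PD-1 library 1 (0.0758), anti-PD-1 library 3 (0.0773) or anti-IgG library 2 (0.0938). It was also lost with the gene length trend removed (-0.67, adjusted p = 0.0831) and with the transcript length trend removed (-0.71, 0.0836). H2-Q6 and H2-Q7 encode Qa-2 chains, which can be anchored in the membrane by a lipid. H2-Q7 (chr17:35439155-35443773) had 14.8, 13.3 and 10.6 CPM in anti-PD-1 libraries, against 19.4, 20.4 and 19.4 CPM in anti-IgG libraries. The 3 anti-IgG libraries were nearly equal and above all anti-PD-1 libraries. H2-Q7 fell by 0.61 on the log2 scale (SE 0.20, edgeR's adjusted p = 0.0464), just inside the threshold, and the call was lost without any single library (0.0607 to 0.167). It was also lost with the gene length trend removed (-0.60, adjusted p = 0.065) and with the transcript length trend removed (-0.24, 0.503), and under RLE scaling, with no count filter, on FPKM, and without mitochondrial and haemoglobin genes. H2-Q6 had 27.4, 39.9 and 17.4 CPM under anti-PD-1, against 42.4, 59.1 and 41.8 CPM under anti-IgG; its log2 fold change, -0.76 (SE 0.28, edgeR's adjusted p = 0.0757), did not pass with all libraries and did without anti-PD-1 library 2 (0.0228), which lay just under the lowest anti-IgG library.

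H2-Q6 and H2-Q7 cannot be read as independent measurements. Their coding sequences were 93.1% identical with one unbroken identical run of 265 bases, and the 120 coding bases with most differences hold 14, in capitals.
H2-Q6 coding bases 61 to 180: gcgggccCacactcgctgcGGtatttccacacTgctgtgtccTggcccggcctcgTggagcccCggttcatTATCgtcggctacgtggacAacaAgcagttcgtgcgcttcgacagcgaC
H2-Q7 coding bases 61 to 180: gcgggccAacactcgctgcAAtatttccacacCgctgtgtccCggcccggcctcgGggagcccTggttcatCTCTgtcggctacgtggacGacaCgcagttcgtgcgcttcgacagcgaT
Of the 50-base stretches, 40.2% of H2-Q7 (21.9% of the 100-base stretches), 32% of H2-Q6 (10.8%), 28.8% of H2-T23 (7.28%) and 24.3% of H2-Q4 (2.66%) occur in another gene's transcript.

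The other tested nonclassical genes did not pass either. H2-T22, a ligand of some gamma delta T cells, had 35.3, 27.2 and 19.8 CPM in anti-PD-1 libraries, against 25.4, 34.5 and 38.6 CPM in anti-IgG libraries (-0.26 on the log2 scale, SE 0.24, edgeR's adjusted p = 0.46); the groups overlapped, and 44.7% of its 50-base stretches are shared, chiefly with the pseudogene H2-T10. H2-M3, which presents N-formylated peptides of bacteria and mitochondria, had 5.83, 4.50 and 4.18 CPM under anti-PD-1, against 6.30, 7.05 and 6.81 CPM under anti-IgG (-0.47, SE 0.25, adjusted p = 0.194). H2-T24 was the one tested nonclassical gene above 0, at 16.1, 14.4 and 10.1 CPM under anti-PD-1, against 14.3, 8.89 and 10.1 CPM under anti-IgG (0.28, SE 0.25, adjusted p = 0.445). H2-Q10, a secreted class I chain made mainly in liver, had 17, 5 and 2 reads in anti-PD-1 libraries, against 72, 22 and 3 reads in anti-IgG libraries, and its log2 fold change of -2.05 carried an SE of 1.02 (edgeR's adjusted p = 0.175). The remaining 14 nonclassical genes had too few reads to test. Of these, 10 had no read in any of the 6 libraries (most of the H2-M10 genes, H2-M1, H2-M2, H2-M9, H2-Q2 and H2-T3); a count of 0 allows up to 3 reads per library, or 0.142 to 0.166 CPM, by counting error alone. H2-Q1 had 1, 0 and 0 reads under anti-PD-1, against 1, 4 and 2 reads under anti-IgG, and H2-M5 had 0 in all anti-PD-1 libraries and 1, 7 and 0 under anti-IgG.

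Of the 7 genes of the light chain and of peptide loading, 1 rose (14.3%, against 10.3% of all genes), 0 fell and 6 passed in neither direction. B2m, the light chain without which class I molecules do not reach the surface, was the most abundant member per length, at 450 ± 44.2 FPKM under anti-PD-1 and 703 ± 191 FPKM under anti-IgG (SD, n = 3 each). B2m (chr2:122147686-122153083) had 448, 378 and 400 CPM in anti-PD-1 libraries, against 550, 863 and 540 CPM in anti-IgG libraries. The groups did not overlap, and anti-IgG library 2 lay far above the rest. The log2 fold change of -0.67 (SE 0.23, edgeR's adjusted p = 0.0627) did not pass with all libraries and did without anti-IgG library 1 (0.0469), and B2m, one of the shortest members at 860 bp, lay at 0.081 with the gene length trend removed and at 0.21 with the transcript length trend removed. Its ratio to the summed class I heavy chains in FPKM was 2.11, 1.92 and 2.83 under anti-PD-1 and 2.4, 2.69 and 1.87 under anti-IgG, and the ranges overlapped.

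Erap1, the aminopeptidase that trims peptides in the endoplasmic reticulum to the length class I can hold, was the one member that rose. Erap1 (chr13:74639568-74693201) had 74.9, 63.2 and 59.2 CPM in anti-PD-1 libraries, against 45.3, 33.7 and 36.5 CPM in anti-IgG libraries. All anti-PD-1 libraries lay above all anti-IgG libraries. Its log2 fold change was 0.77 (SE 0.18, edgeR's adjusted p = 0.017), a call lost without anti-PD-1 library 1 (0.0712), anti-IgG library 2 (0.0972) or anti-IgG library 3 (0.0557). Erap1 is long, at 7280 bp, and with the gene length trend removed its log2 fold change was 0.54 (adjusted p = 0.065), with the transcript length trend removed 0.26 (0.345).

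Tap1 and Tap2 are the subunits of the transporter that brings peptides into the endoplasmic reticulum. Tap1 had 17.6, 15.3 and 11.9 CPM in anti-PD-1 libraries, against 19.0, 17.7 and 22.9 CPM in anti-IgG libraries. Tap2 had 17.1, 14.3 and 12 CPM in anti-PD-1 libraries, against 20.4, 20.0 and 22.4 CPM in anti-IgG libraries. The groups did not overlap in either gene, though only just for Tap1, and neither gene passed (Tap1 -0.41, SE 0.21, edgeR's adjusted p = 0.18; Tap2 -0.53, SE 0.20, 0.0757). The ratio of Erap1 to Tap1 in CPM, a comparison between libraries and not between the genes, was 4.24, 4.13 and 4.97 under anti-PD-1 and 2.39, 1.9 and 1.6 under anti-IgG. Because Erap1 lay higher and Tap1 lower in every anti-PD-1 library, this ratio had to separate the groups and adds no result. No length trend was removed from it. Tapasin (Tapbp), which holds class I at the transporter, had 96.2, 73.6 and 70.3 CPM under anti-PD-1, against 68.5, 70.9 and 86.6 CPM under anti-IgG (0.087, SE 0.19, adjusted p = 0.774), and the groups overlapped. Its relative Tapbpl, a peptide editor, had a log2 fold change of -0.34 (SE 0.25, adjusted p = 0.34). Calr, the chaperone calreticulin, had 205, 166 and 200 CPM under anti-PD-1, against 200, 287 and 344 CPM under anti-IgG (-0.54, SE 0.23, adjusted p = 0.108); anti-IgG library 1 lay within the anti-PD-1 range, and without it Calr passed (0.0293).

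All 9 tested class II genes had log2 fold changes below 0, and 3 of them (33.3%, against 10.8% of all genes), the classical chains, fell. The tested class II genes were short (median 1637 bp), and 28.8% of all genes of up to 2000 bp were called lower. With the gene length trend removed, 5 of the 9 lay below 0, and with the transcript length trend removed, 7 did. H2-Aa and H2-Ab1 encode the alpha and beta chains of I-A, the class II molecule on the surface of C57BL/6 cells. H2-Aa (chr17:34282744-34287827) had 34.2, 38.5 and 43.0 CPM in anti-PD-1 libraries, against 57.6, 71.4 and 78.3 CPM in anti-IgG libraries. H2-Ab1 (chr17:34263209-34269418) had 28.4, 30.7 and 33.0 CPM in anti-PD-1 libraries, against 44.9, 41.0 and 54.7 CPM in anti-IgG libraries. In both genes every anti-PD-1 library lay under every anti-IgG library. H2-Aa fell by 0.84 on the log2 scale (SE 0.18, edgeR's adjusted p = 0.0127) and H2-Ab1 by 0.61 (SE 0.18, 0.0337). The beta chain H2-Eb1 is transcribed in C57BL/6 mice although these mice lack the alpha chain needed to bring it to the surface. H2-Eb1 (chr17:34305877-34316199) had 27.9, 34.2 and 30.5 CPM in anti-PD-1 libraries, against 42.9, 55.0 and 69.4 CPM in anti-IgG libraries. The groups did not overlap, and H2-Eb1 fell by 0.85 (SE 0.20, edgeR's adjusted p = 0.017).

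None of the 3 calls held in every fit. H2-Aa was lost without anti-PD-1 library 1 (adjusted p = 0.0619) or anti-IgG library 2 (0.06), H2-Eb1 without anti-PD-1 library 1 (0.0735), anti-PD-1 library 3 (0.0549), anti-IgG library 2 (0.0626) or anti-IgG library 3 (0.0512), and H2-Ab1 without any library but anti-IgG library 1 (0.0686 to 0.126), all in edgeR. With the gene length trend removed the log2 fold changes were -0.36 for H2-Aa (adjusted p = 0.154), -0.18 for H2-Eb1 (0.514) and -0.07 for H2-Ab1 (0.817). With the transcript length trend removed they were -0.28 (0.275), -0.34 (0.228) and -0.078 (0.81). No stretch of 50 bases in these transcripts occurs in another gene's transcript.

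Cd74, the invariant chain that escorts class II to the endosome and fills its groove, was the most abundant class II gene per length, at 73.6 ± 26.3 FPKM under anti-PD-1 and 98.9 ± 17.9 FPKM under anti-IgG (SD, n = 3 each). It had 64.2, 131 and 134 CPM in anti-PD-1 libraries, against 131, 138 and 180 CPM in anti-IgG libraries. Anti-PD-1 library 1 stood well under all others, while anti-PD-1 libraries 2 and 3 lay beside anti-IgG libraries 1 and 2; the log2 fold change of -0.45 (SE 0.27, edgeR's adjusted p = 0.257) did not pass. The summed reads of the 3 classical chains divided by those of Cd74, in CPM, gave 1.41, 0.788 and 0.795 in anti-PD-1 libraries, against 1.11, 1.21 and 1.12 in anti-IgG libraries, so the anti-PD-1 libraries lay on both sides of the anti-IgG ones. Anti-PD-1 library 1, the lowest in summed class II reads (179 CPM, against 260 and 273 CPM in anti-PD-1 libraries 2 and 3), was the highest anti-PD-1 library in summed class I heavy chains (643 CPM, against 591 and 427 CPM). The 3 anti-PD-1 libraries therefore did not rank alike in the 2 classes.

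Of the other 6 tested class II genes none passed with all libraries. Ctss, cathepsin S, which cuts Cd74 out of the groove, had 16.7, 16.1 and 23.2 CPM under anti-PD-1, against 18.9, 35.7 and 29.2 CPM under anti-IgG (-0.58, SE 0.25, edgeR's adjusted p = 0.115), and passed without anti-IgG library 1 (0.0269). H2-DMa and H2-DMb1, which form the peptide exchange factor of class II, lay at -0.59 (SE 0.38, 0.275) and -0.58 (SE 0.35, 0.248); the second beta gene H2-DMb2, 95.9% identical to H2-DMb1 in coding sequence, lay at -0.10 (SE 0.57, 0.916). H2-Ob, the beta chain of the inhibitor of that factor, is known chiefly from B cells. It had 13, 21 and 26 reads in anti-PD-1 libraries, against 51, 37 and 46 reads in anti-IgG libraries, and the groups did not overlap. Its log2 fold change of -1.20 (SE 0.41, edgeR's adjusted p = 0.0558) missed the threshold. Its partner H2-Oa had 6, 0 and 2 reads under anti-PD-1, against 4, 4 and 6 under anti-IgG, and H2-Eb2 had 1, 0 and 2 under anti-PD-1, against 4, 0 and 0 under anti-IgG; neither could be tested.

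The transcripts of the 2 master regulators did not pass. Ciita, the class II activator, had 4.19, 3.00 and 2.55 CPM in anti-PD-1 libraries, against 1.74, 1.85 and 2.75 CPM in anti-IgG libraries. The groups overlapped, since anti-PD-1 library 3 lay under anti-IgG library 3, and the log2 fold change of 0.62 (SE 0.36, edgeR's adjusted p = 0.236) had the opposite sign to those of the class II chains. Nlrc5, the class I activator, had 9.77, 8.14 and 8.12 CPM under anti-PD-1, against 8.86, 12.9 and 7.36 CPM under anti-IgG (-0.16, SE 0.25, adjusted p = 0.684). Both are long genes, and per length both were low, Nlrc5 at 0.967 ± 0.112 FPKM under anti-PD-1 and 1.06 ± 0.301 FPKM under anti-IgG, Ciita at 0.322 ± 0.0853 FPKM under anti-PD-1 and 0.206 ± 0.0548 FPKM under anti-IgG (SD, n = 3 each).

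**Figure D3:**
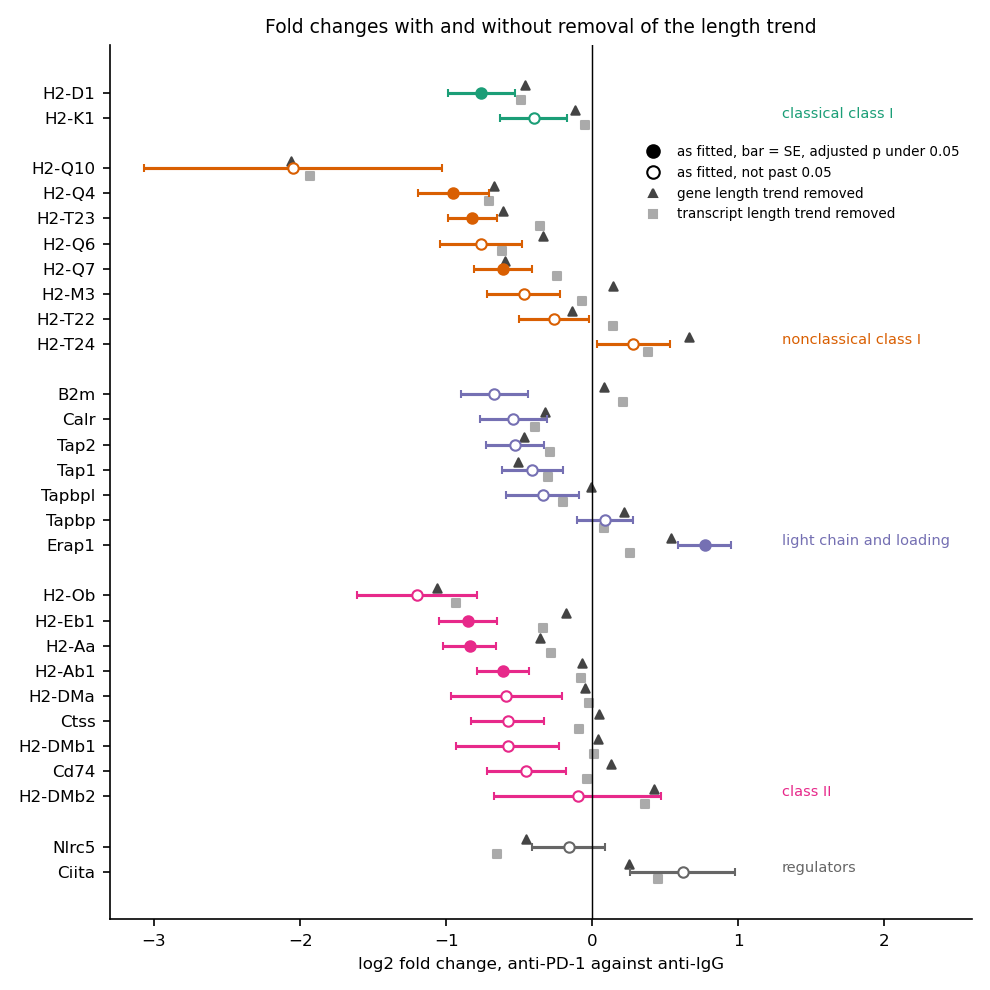
Log2 fold change of each tested member (anti-PD-1 over anti-IgG), with bars of 1 SE and filled circles at an adjusted p under 0.05, and the same value with the gene length trend (triangles) or the transcript length trend (squares) removed. Most class II genes and B2m move towards or past 0 once either length trend is removed. The called genes H2-D1, H2-Q4, H2-T23, H2-Q7, H2-Aa, H2-Eb1, H2-Ab1 and Erap1 also move towards 0 but keep their sign. H2-Ob and H2-Q10, which are not called, keep negative values too.

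Per length, B2m stood above every other member in both groups. Behind it, in anti-PD-1 hearts, H2-D1 at 75.8 ± 10.8, Cd74 at 73.6 ± 26.3, H2-K1 at 73.5 ± 19.7 and Calr at 62.5 ± 7.87 FPKM did not differ beyond their spread. In anti-IgG hearts the order was H2-D1 at 126 ± 31.4, Cd74 at 98.9 ± 17.9, H2-K1 at 95.3 ± 11.4 and Calr at 89.4 ± 23.3 FPKM (SD, n = 3 each), again with overlapping spreads. Under both antibodies H2-Eb1 came next, at 24.7 ± 2.19 FPKM under anti-PD-1 and 43.8 ± 10.4 FPKM under anti-IgG.

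**Figure D4:**
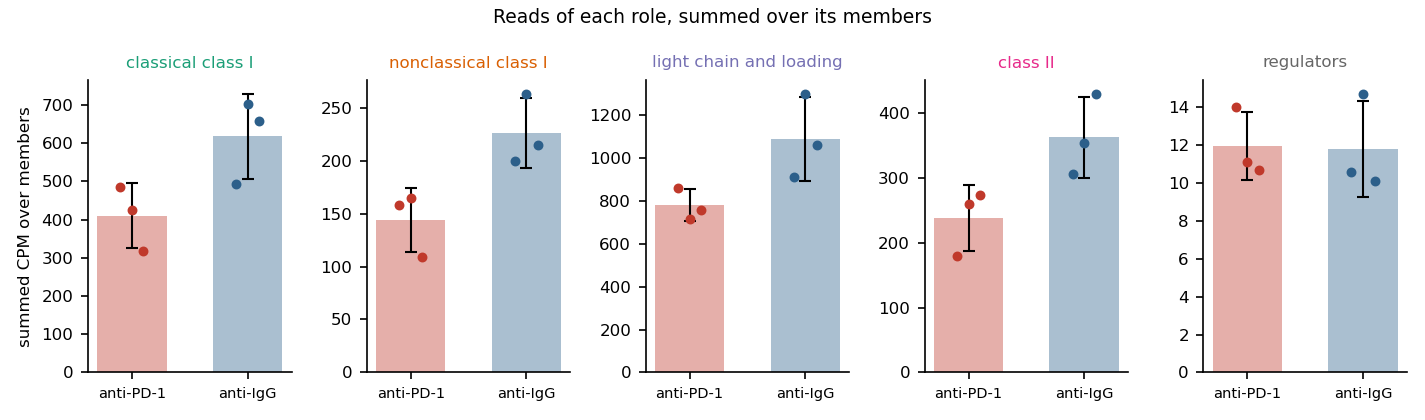
Summed CPM over the members of each role, 1 point per library, under anti-PD-1 left of anti-IgG and bars for the mean and error bars for the SD of 3 libraries. Classical class I averaged 410 ± 84.8 CPM under anti-PD-1, against 617 ± 111 CPM under anti-IgG, nonclassical class I 144 ± 30.5 and 226 ± 33.2 CPM, light chain and loading 780 ± 75.2 and 1090 ± 196 CPM, class II 237 ± 50.9 and 363 ± 62.5 CPM, and the regulators 11.9 ± 1.78 and 11.8 ± 2.52 CPM.

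The immunoproteasome is induced by interferon gamma and cuts proteins into peptides suited to class I. All 5 listed genes (Psmb8, Psmb9, Psmb10 and the activator subunits Psme1 and Psme2) were called lower, against 10.8% of all genes. Their median log2 fold change was -1.18, against -0.03 over all genes. Psmb9 had 132, 100 and 102 reads in anti-PD-1 libraries, against 236, 252 and 286 reads in anti-IgG libraries (-1.27, SE 0.22, edgeR's adjusted p = 0.00694), and Psmb10 had a log2 fold change of -1.13 (SE 0.20, 0.00727). Both held without any one library (at most 0.0428 and 0.0341), whereas Psmb8 (-1.0, SE 0.27, 0.0263) was lost without anti-PD-1 library 2 (0.0651) or 3 (0.0895) or anti-IgG library 2 (0.0975) or 3 (0.0942). With the gene length trend removed 3 of the 5 were still called, against 10.3% of all genes. With the transcript length trend removed none was, against 6.32% of all genes.

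In the interferon gamma route, calls went in both directions. Of all genes, 10.8% were called lower and 10.3% higher. The transcription factor Irf1 fell by 0.80 on the log2 scale (SE 0.23, edgeR's adjusted p = 0.0343). That call was lost without anti-PD-1 library 1 (0.13) or 3 (0.117) or anti-IgG library 2 (0.115) or 3 (0.0766). It was also lost with the gene length (0.0512) or the transcript length trend removed (0.118). Jak2 rose by 0.65 (SE 0.21, edgeR's adjusted p = 0.0497), just inside the threshold. The call of Jak2 was lost with the gene length (0.0887) or the transcript length trend removed (0.352). Ifng, the gene of interferon gamma, had 4 reads in anti-PD-1 library 3 and none elsewhere. Of 20 interferon response genes outside the MHC, 5 fell (Irf7, Isg15, Ifit3, Oas2 and the chemokine Cxcl9), 0 rose and 15 did not pass; 10.8% of all genes fell. Ifit3 was lost with the gene length (0.528) and the transcript length trend removed (0.229) and Isg15 with the transcript length trend removed (0.0602), while Irf7 and Oas2 passed in both. Cxcl9 had 5.73, 4.93 and 6.63 CPM under anti-PD-1, against 15.2, 15.9 and 11.2 CPM under anti-IgG (-1.29, SE 0.23, edgeR's adjusted p = 0.00754), and held without any one library (at most 0.0462) and under both length corrections (0.0177 and 0.0334).

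Calls in the remaining machinery went in both directions. Of all genes, 21.1% were called, 10.8% lower and 10.3% higher. Among 9 tested genes of class I assembly that are not members, Bcap31 (-0.90, SE 0.21, edgeR's adjusted p = 0.0155), a receptor for export from the endoplasmic reticulum, and Stx4a fell, Uggt1 (0.78, SE 0.20, 0.02), which checks glycoprotein folding, rose, and 6 passed in neither direction. Among 11 tested genes of class II processing, Cd63 (-0.65, SE 0.18, 0.028) fell, Lamp2 (0.96, SE 0.22, 0.0147) rose and 9 passed in neither direction. Bcap31, Uggt1, Cd63 and Lamp2 were each lost without anti-IgG library 2 (0.0726, 0.0871, 0.118 and 0.0748) or anti-PD-1 library 1 (0.0699, 0.0846, 0.0788 and 0.0583), and of them only Lamp2 passed with a length trend removed, that of the transcript (0.0242). Of the 10 partners of CIITA and NLRC5, the coactivators Ep300 (1.00, SE 0.19, 0.00865) and Kat2b (0.96, SE 0.22, 0.0144) rose and 8 passed in neither direction, among them Rfx5 (-0.059, SE 0.24, 0.886), which binds the X box. Ep300 was lost with the gene length (0.55, adjusted p = 0.0718) and the transcript length trend removed (0.47, 0.121), and Kat2b with the transcript length trend removed (0.60, 0.0936). Leaving out anti-PD-1 library 1 (0.0501), anti-IgG library 2 (0.0756) or anti-IgG library 3 (0.0524) also ended the call of Kat2b. None of 6 costimulation genes passed, with Cd40 at -0.91 (SE 0.33, 0.0676), and none of 5 tested CD1, MR1 and related genes did; at an unadjusted p of 0.05, 1 and 0 of them passed in edgeR.

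Markers of the cells that carry class II differed from list to list. Of all genes, 10.8% were called lower and 10.3% higher. B cell markers summed to 12.7, 10.6 and 17.5 CPM in anti-PD-1 libraries, against 28.7, 30.2 and 35.0 CPM in anti-IgG libraries, and 4 of 9 fell (Cd79a, Cd79b, Ighm and Ighd). Macrophage markers summed to 460, 431 and 459 CPM under anti-PD-1, against 412, 759 and 700 CPM under anti-IgG; C1qa, C1qb and C1qc fell, Adgre1 rose and 8 of 12 did not pass. Like H2-D1 and Calr, these markers stood low in anti-IgG library 1. Dendritic cell markers summed to 50.4, 48.8 and 50.4 CPM under anti-PD-1, against 55.2, 52.1 and 50.6 CPM under anti-IgG, and none of 7 tested passed (1 at an unadjusted p of 0.05 in edgeR). T cell markers summed to 4.34 to 5.04 CPM under anti-PD-1, against 5.43 to 7.55 CPM under anti-IgG, and 1 of 4 tested, Trac, fell. Natural killer cell markers were too low to test, at 1.01 to 1.84 CPM under anti-PD-1, against 1.29 to 1.8 CPM under anti-IgG. Markers of spleen and lymph node tissue summed to 0.375 to 1.06 CPM under anti-PD-1, against 1.51 to 2.36 CPM under anti-IgG. No marker in these 6 lists was at 0 in all 6 libraries. Of the called markers of these leukocytes, Cd79a (0.0425) and Cd79b (0.0469) alone passed in edgeR without anti-IgG library 2, and none passed without anti-PD-1 library 1 (0.051 to 0.152). Leukocyte markers summed to 84.9 to 132 CPM under anti-PD-1, against 91.3 to 153 CPM under anti-IgG, with Cd52, Tyrobp and Fcer1g of 7 called lower. With the gene length trend removed, Cd79a (adjusted p = 0.0347) and Adgre1 (0.016) were the named leukocyte markers that still passed in edgeR. With the transcript length trend removed, Cd79a (0.0391), Adgre1 (0.0296), Ighm (0.0329) and Ighd (0.0374) passed, of which Ighm and Ighd had no length in that correction; C1qa, C1qb and C1qc were lost under both. The part of these cell types in the antigen presentation genes was not tested.

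The left ventricle label was not tested, since none of the marker lists was chosen to separate the chambers of the heart. Cardiomyocyte markers were high in every library, at 17400 to 30400 summed CPM under anti-PD-1, against 27500 to 34400 CPM under anti-IgG. Of these markers, Tnnt2, Tnni3 and Myl2 fell and Ryr2 rose in edgeR. With the gene length trend removed, Tnnt2 (edgeR's adjusted p = 0.0194), Myl2 (0.0339) and Ryr2 (0.033) still passed and Tnni3 (0.055) did not. None of these markers passed with the transcript length trend removed (0.072 to 0.147). Endothelial markers summed to 1290 to 1590 CPM under anti-PD-1, against 1600 to 1690 CPM under anti-IgG (Egfl7 and Cldn5 of 8 fell, Egfl7 alone under both length corrections), and fibroblast markers to 1610 to 2720 CPM under anti-PD-1, against 1390 to 2120 CPM under anti-IgG (0 of 6 called, 1 at an unadjusted p of 0.05 in edgeR). The libraries held 18664362 to 21093163 counted reads under anti-PD-1 and 18063344 to 19708578 under anti-IgG, of which mitochondrial genes took 28.9% to 35.6% under anti-PD-1 and 29.9% to 39.3% under anti-IgG.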

How the data were processed

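Whole left ventricle RNA was measured in 6 libraries, 3 per antibody, grouped by their titles. The authors deposited counts per gene, made with featureCounts on mm10 per the submitters' processing notes, and FPKM per gene; of the aligner, the annotation and the handling of reads with several matches, none is named in the sources used here. The kit in the labels is not described as stranded, and the strand setting of the counting is not given. Whether overlapping genes were told apart by strand is therefore not known. Depth was 18063344 to 21093163 counts per library; intervals and floors cover counting error only.

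The members and the gene lists were chosen with earlier results of these data known. Genes were kept by filterByExpr, scaled by TMM and tested with edgeR 4.0.16 (quasi-likelihood, robust; R 4.3.3), with Benjamini-Hochberg adjustment over all tested genes; the steps were checked on simulated data. Length trends were natural splines (5 degrees of freedom) fitted per library to log2 CPM (prior count 2) and entered as offsets; coding plus 3' UTR lengths from GENCODE M21 covered 88.3% of tested genes, and the others received no length term of their own. Levels between genes used FPKM. Named were all tested members, up to 6 untested ones, the 2 genes of each pathway list with the smallest p beside a few fixed ones, and called markers. Other genes were named to complete a count, and Jak2 to show the other direction, after their values were seen. A result of the interferon gamma list is not reported here. Alternatives (18) covered scaling, filters, DESeq2 1.42.0, limma 3.58.1 on counts and on log2 FPKM (pseudocounts 1 and 0.1), both length trends, a replicate block, and each library left out. The exact permutation test of 3 against 3 cannot go below p = 0.1 and was not used.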

Additional observations from a re-analysis of the deposited data

How the results depend on the processing

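Of 28 tested members, 7 were called lower and 1 higher, 8 in all. Members lower numbered 11 under upper quartile scaling, where the median over all genes lay at -0.12, against -0.03 (log2), which left 36.8% of all calls higher, against 48.9%. With the gene length trend removed, 1 member was called (1 lower, 0 higher) and 1526 genes in all; with the transcript length trend removed, 0 members (0 lower, 0 higher) and 936 genes. Leaving out one library gave 0 to 10 members called, 0 to 9 lower and 0 to 1 higher, and 532 to 3646 genes of all tested; the lowest came without anti-IgG library 2 and the highest without anti-IgG library 1. Other counts over 1.5 times lower were 1 member and 969 genes (anti-PD-1 library 1 left out), 3 and 1766 (anti-PD-1 library 3) and 3 and 1564 (anti-IgG library 3). The count of members stayed within 1.5 times under RLE scaling, both count filters, DESeq2, limma on counts and on FPKM, and without mitochondrial and haemoglobin genes; Of the 8 calls, H2-D1 was lost on FPKM and H2-Q7 on FPKM, under RLE scaling, with no count filter and without those genes; H2-Q6, B2m and H2-Ob were also called by DESeq2. Same-numbered libraries correlated at 0.124, -0.143 and 0.214, and not every library correlated best with its own number. With 3 libraries per group these values cannot tell whether the numbers pair the samples, and the labels state no pairing. A replicate block gave 8 members lower, 1 higher and 3367 calls, with H2-D1 lost (edgeR's adjusted p = 0.0565) and H2-Q6 and H2-Q10 gained.

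Some log2 fold changes that were not called turned sign, as did Cd63 and Uggt1. With the gene length trend removed these were H2-M3 (0.14), B2m (0.081), Cd74 (0.13), Ctss (0.049), H2-DMb1 (0.038), H2-DMb2 (0.42) and Fcgrt (0.12). With the transcript length trend removed they were H2-T22 (0.14), B2m (0.21), H2-DMb1 (0.0094), H2-DMb2 (0.36), Cd63 (0.033), Fcgrt (0.18) and Uggt1 (-0.065). Tapbp was -0.0029 under upper quartile scaling. Leaving out one library at a time moved Tapbp to as low as -0.058, and gave H2-DMb2 from -0.47 to 0.30, Nlrc5 from -0.31 to 0.081 and Rfx5 from -0.17 to 0.019. The cause was not tested.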

Other observations

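The table also lists 11 H2 pseudogenes, which are not members; 5 had no read in any library. Summed, they came to 6.33, 6.81 and 4.37 CPM in anti-PD-1 libraries, against 11.4, 13.9 and 12.3 CPM in anti-IgG libraries. H2-K2 had 9, 21 and 9 reads with anti-PD-1, against 76, 59 and 53 reads with anti-IgG. H2-Q5 had 65, 62 and 48 reads with anti-PD-1, against 95, 127 and 128 reads with anti-IgG, and H2-T10 had 44, 37 and 30 with anti-PD-1, against 45, 51 and 57 with anti-IgG. In each of these 3 the groups did not overlap, and all were picked after their values were seen. Their sequences resemble those of expressed class I genes, and the part of shared reads was not tested.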
